A study of Mus musculus with 6 samples.

Results

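The comparison described here sets CD140a(+)/Sca1(+) cells of injured mouse muscle against CD140a(-)/Sca1(+) cells of the same injured state. Both sorts carry Sca1, so the sort differs by CD140a. Each side is 1 library, and the measure is the difference between their deposited values. A gene was taken as a member when its value reached 6 in one or both libraries, which selected 5808 of 22483 genes (25.8%). On the deposited log2 scale a value of 6 is equal to 52.7 normalized counts. The member just inside that limit was Slc26a6, with 52.7 normalized counts in CD140a(+)/Sca1(+) cells and 0.859 in CD140a(-)/Sca1(+) cells. Just outside it stood Usp49, with 11.1 and 52.6 in the same order of sorts.

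Stromal cells were sorted from hind limb muscle of Swiss white mice aged 8 to 12 weeks, 3 days after cardiotoxin (20 uM), which comes from snake venom and destroys muscle fibers. The control was the untreated muscle of the opposite leg. Cells negative for CD45, CD31 and CD11b were sorted by CD140a and Sca1 in each state, and CD140a(+)/Sca1(-) cells were taken beside the pair. The number of mice behind a library was not given in the sources used here. The labels and methods name tibialis anterior where the text of the study names gastrocnemius and soleus. Cells were kept at 37 °C for 8 h to recover surface markers before the sort.

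CD140a is the platelet-derived growth factor receptor alpha, encoded by Pdgfra, and in muscle it is the usual surface marker of fibro-adipogenic precursors (FAPs). Sca1, encoded by Ly6a, is carried by FAPs, by endothelial cells and by several progenitor populations. FAPs lie between muscle fibers, divide in the first days after injury, secrete factors that act on muscle stem cells and leukocytes, and can form fibroblasts or adipocytes. In tissue culture and in injured muscle they respond to cytokines such as interleukin-4, tumor necrosis factor and transforming growth factor beta.

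No group had a second library. No test across replicates could therefore be made, and the intervals given below are exact 95% intervals for the ratio of the read counts estimated in the 2 libraries, which cover counting error only. Depth was estimated at 4066562 reads in the injured CD140a(+)/Sca1(+) library and 14161985 in the injured CD140a(-)/Sca1(+) library. A gene was called higher or lower when its deposited values differed by at least 3-fold (1.58 on the log2 scale). Levels below are normalized counts, the reads scaled to a common library size, and every fold is the ratio of these counts. Because the deposited scale is compressed at low counts, a gene with few reads can have a ratio above 3 without being called.

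The sort was read off its own genes first. Pdgfra had 1240.0 normalized counts in injured CD140a(+)/Sca1(+) cells and 335 in injured CD140a(-)/Sca1(+) cells, 3.7-fold higher (95% interval 3.49 to 3.92), and 203 in injured CD140a(+)/Sca1(-) cells. Ly6a had 4099 and 1177 in the Sca1(+) sorts, in the order CD140a(+) then CD140a(-), and 2.09 in injured CD140a(+)/Sca1(-) cells. Within the injured pair Pdgfra was thus ordered as the labels say, though its RNA was present in the CD140a(-) sort and was lower still in injured CD140a(+)/Sca1(-). Ly6a, which encodes the marker carried by both sorts, was 3.48-fold higher (95% interval 3.38 to 3.59) in injured CD140a(+)/Sca1(+) cells. The gate genes were low in the pair: Pecam1 (CD31) had 1.51 and 1.39, Ptprc (CD45) 0.533 and 2.5, and Itgam (CD11b) 8.48 and 22.5 normalized counts, CD140a(+)/Sca1(+) first.

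The control pair did not follow its labels. Pdgfra had 26.3 normalized counts in the library labelled control CD140a(+)/Sca1(+) against 211 for control CD140a(-)/Sca1(+) cells, and Ly6a had 253 and 5850.0. Pdgfra had 33.6 in control CD140a(+)/Sca1(-) cells, so its highest control level was in the CD140a(-) sort. The study gives its lowest sort enrichment for control CD140a(+)/Sca1(+) cells. Endothelial genes made up 2.17% of the library with that label, against 0.312% of control CD140a(-)/Sca1(+). Fibroblast and FAP markers made up 0.129% and 0.813%. In the injured pair the fibroblast and FAP sum was lower on the same side, at 0.855% in injured CD140a(+)/Sca1(+) and 1.23% in injured CD140a(-)/Sca1(+) cells. The control pair is therefore given below only as values beside the injured pair, by its labels. The third injured sort, CD140a(+)/Sca1(-), listed 69.1% of all genes at 0, against 33.9% and 39.0% in the pair, and 1154 of the members were at 0 in it.

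Over the 5808 members the median difference was 0.19 on the log2 scale, with quartiles of -0.46 and 0.84, and 3360 members lay above 0 and 2448 below. At least 3-fold higher in injured CD140a(+)/Sca1(+) cells were 527 members (9.07%), and at least 3-fold lower were 232 (3.99%). The counting interval excluded a ratio of 1 for all 759 called genes and lay wholly past 3-fold for 713. The split of the calls depended on the scaling. Of all calls 69.4% were higher as deposited, 56.0% after the medians of both libraries were made equal (394 higher, 310 lower), and 48.4% after quantile normalization (340 higher, 363 lower). Centring on the medians lowered each difference by 0.17.

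**Figure D1:**
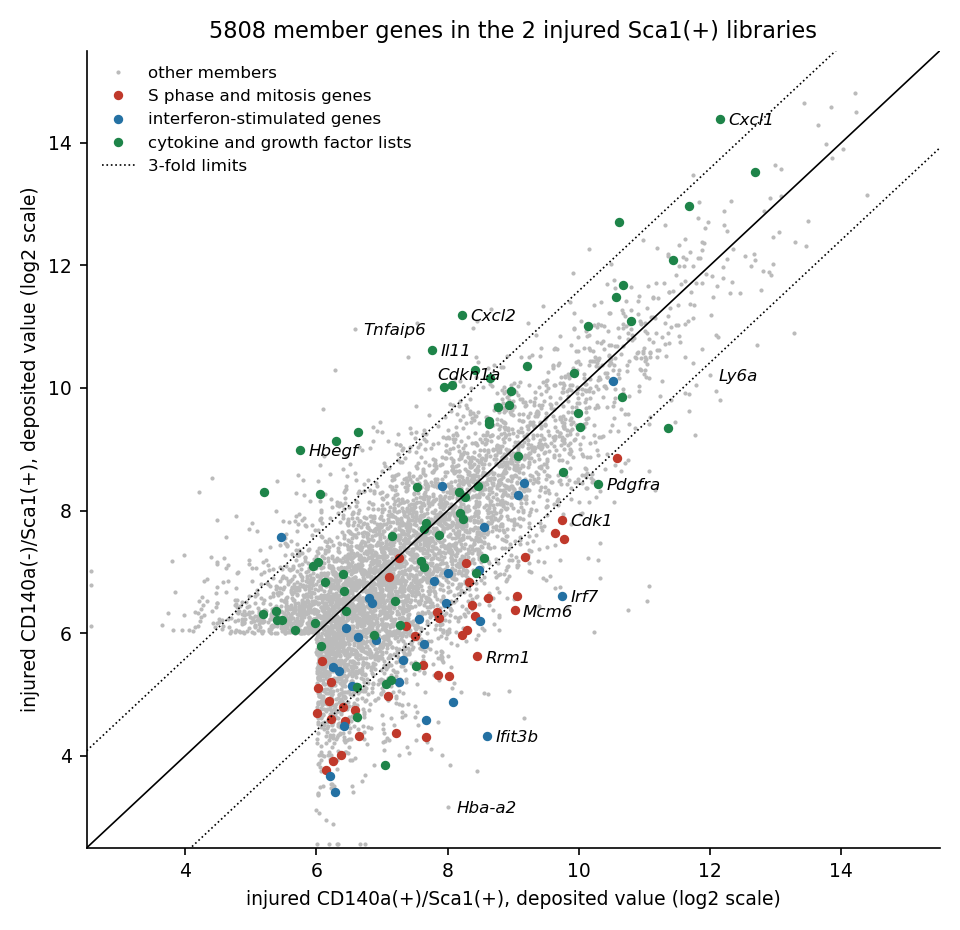
Deposited values (log2 scale) of the 5808 members in the injured CD140a(+)/Sca1(+) library (x axis) against the injured CD140a(-)/Sca1(+) library (y axis), 1 point per gene. The solid line marks equal values and the dotted lines 3-fold differences. All 40 S phase and mitosis genes (red) lie below the solid line, 28 of them past the 3-fold limit.

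Most genes of the cell division cycle were higher in injured CD140a(+)/Sca1(+) cells. Of 24 S phase genes among the members 19 were at least 3-fold higher and none lower, with a median difference of 2.07, where 9.07% of all members were higher and their median was 0.19. Of 16 mitosis genes 9 were higher and none lower, with a median of 1.63. All 40 lay above 0. Since a gene that is high in only one library can become a member through that library, the same counts were taken over every listed gene. Of 64 such genes 59 lay above 0 and 34 were at least 3-fold higher, with a median of 1.63, and again none was lower. Because the libraries are bulk samples, a larger share of dividing cells and more RNA of these genes per cell cannot be told apart.

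Rrm1 encodes the large subunit of ribonucleotide reductase, which makes the deoxynucleotides for DNA synthesis, and lies at chr7:102441695-102469771 on the plus strand of GRCm38. It had 338 normalized counts in injured CD140a(+)/Sca1(+) cells and 38.2 in injured CD140a(-)/Sca1(+) cells, 8.86-fold higher (95% interval 7.65 to 10.3). Ccne2, the cyclin E2 of entry into S phase, had 248 and 28.7, 8.63-fold higher (95% interval 7.29 to 10.3). Cdc6, which loads the replicative helicase onto origins, had 285 and 51.2, 5.57-fold higher (95% interval 4.86 to 6.39). The helicase itself is the ring of Mcm2 to Mcm7, and 5 of its 6 subunits were past the limit. Mcm6 had 508 and 71.4 normalized counts, 7.12-fold higher (95% interval 6.37 to 7.95), while Mcm7, at 126 and 109, was within it. Outside the naming rule and chosen after their values were seen, Pcna, the sliding clamp of the DNA polymerases, had 1522 against 455, and E2f1, a transcription factor of the S phase genes, 786 against 187.

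The genes of mitosis followed the same order. Ccna2, the cyclin A2 of S phase and mitotic entry, had 521 normalized counts in injured CD140a(+)/Sca1(+) cells and 85.5 in injured CD140a(-)/Sca1(+) cells, 6.1-fold higher (95% interval 5.5 to 6.76). Cdk1, the kinase that drives mitosis, had 845 and 219, 3.87-fold higher (95% interval 3.6 to 4.15). Tpx2, a spindle assembly factor, had 380.2 and 84.1, 4.52-fold higher (95% interval 4.05 to 5.05). The smallest difference on the list was that of Racgap1, with 56.4 and 35.8, and the next was that of Ccnb2, with 54 and 23.5. Ccna2 overlaps Exosc9 and Ccne2 overlaps Ints8 on the opposite strand, and whether reads were counted by strand is not given in the sources used here.

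In the third injured sort the S phase genes had a median of 86.4 normalized counts, between the 266 of injured CD140a(+)/Sca1(+) cells and the 53.2 of injured CD140a(-)/Sca1(+) cells, and 6 of the 24 were at 0 there. In the control pair none of the 40 division genes was higher in the library labelled CD140a(+)/Sca1(+), 2 were lower, and the median difference was -0.22. Cyclin D1, the D-type cyclin that links growth signals to the cycle, is on neither list and was among the 15 largest differences. Its gene Ccnd1 (chr7:144929931-144939925, minus strand) had 480.1 normalized counts in injured CD140a(+)/Sca1(+) cells and 22.4 in injured CD140a(-)/Sca1(+) cells, 21.5-fold higher (95% interval 18.1 to 25.6). LTO1, which overlaps Ccnd1 on the opposite strand, had 2095 and 80.5, so the pair may share reads and neither value stands alone.

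Some genes that hold back the cycle were lower. Of 4 members on the list of cyclin-dependent kinase inhibitors and antiproliferative genes 2 were at least 3-fold lower and none higher, against 3.99% lower over all members. Cdkn1a, which encodes the kinase inhibitor p21, had 198 normalized counts in injured CD140a(+)/Sca1(+) cells and 1003 in injured CD140a(-)/Sca1(+) cells, 5.07-fold lower (95% interval 4.56 to 5.63). Btg1, an antiproliferative gene, had 1133 and 4898, 4.33-fold lower (95% interval 4.14 to 4.52). Ccng2 had 17.6 and 54.5 and Gas1 255 and 133, both within the limit. Over all 14 listed genes 3 were lower and 1 was higher.

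Many S phase promoters carry a site for E2F factors, so the 250 bases before the annotated start were searched on both strands for the words TTTGGCGC and TTTCGCGC. A word was present for 205 of the 27025 genes with a RefSeq promoter (0.759%), for 80 of the 4598 members with one (1.74%), for 4 of 20 S phase genes and for 1 of 13 mitosis genes. The stretches of Mcm6 and Cdk1 are shown because both genes are named above and hold a word, in capitals, 39 and 123 bases before the start (RefSeq, GRCm38.p6, written 5′ to 3′ along the gene). A match describes the letters only.
Mcm6, chr1:128359706-128359805, minus strand: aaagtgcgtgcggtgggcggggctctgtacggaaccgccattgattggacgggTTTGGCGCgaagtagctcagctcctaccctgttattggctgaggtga
Cdk1, chr10:69352990-69353089, minus strand: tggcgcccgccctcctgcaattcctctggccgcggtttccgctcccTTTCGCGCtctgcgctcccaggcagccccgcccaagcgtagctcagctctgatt

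**Figure D2:**
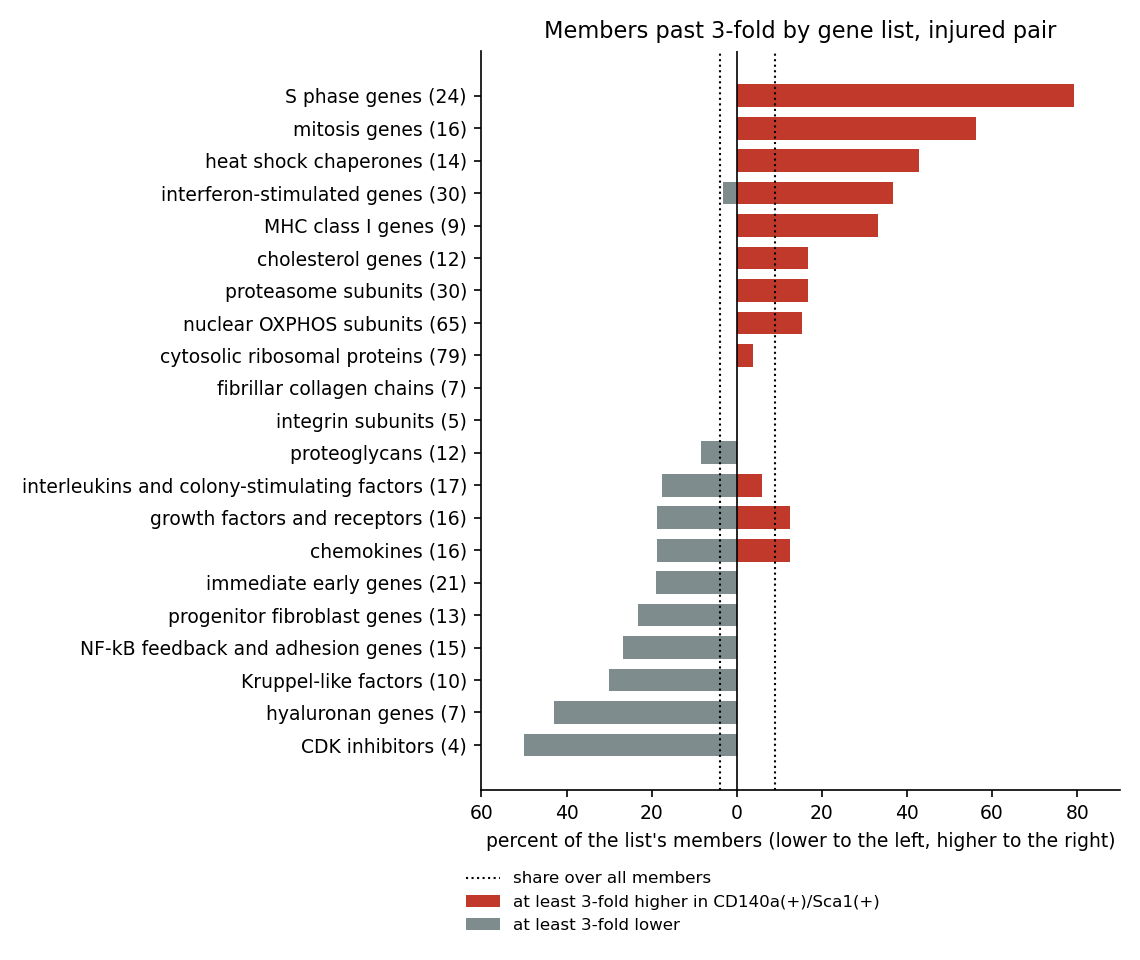
Percent of the members of 21 gene lists at least 3-fold higher (red, to the right) or lower (gray, to the left) in injured CD140a(+)/Sca1(+) than in injured CD140a(-)/Sca1(+) cells, with the number of members in brackets. Dotted lines give the shares over all members, 9.07% higher and 3.99% lower. S phase genes reach 79.2% higher and mitosis genes 56.2%, while fibrillar collagens and integrin subunits have no gene past the limit.

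A set of interferon-stimulated genes was also higher in injured CD140a(+)/Sca1(+) cells. These genes are switched on by STAT and IRF factors when interferon binds its receptor, and their products block viruses and aid antigen presentation. Of 30 members 11 were at least 3-fold higher and 1 lower, beside 9.07% and 3.99% of all members. Their median difference was 1.18, and 28 lay above 0. Over all 44 listed genes 41 lay above 0, 13 were higher and 1 was lower. The median level of the 30 was 183 normalized counts in injured CD140a(+)/Sca1(+) cells and 59.3 in injured CD140a(-)/Sca1(+) cells.

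Ifit3b, which encodes an interferon-induced antiviral protein (chr19:34607970-34613401, plus strand), had 378 normalized counts in injured CD140a(+)/Sca1(+) cells and 9.94 in injured CD140a(-)/Sca1(+) cells, 38-fold higher (95% interval 29.6 to 49.4). Its near-identical neighbor Ifit3 had 66.8 and 2.05, and how reads were divided between the copies is uncertain. Irf7, the master regulator of the interferon response, which overlaps Phrf1 on the opposite strand, had 848 and 86.5, 9.8-fold higher (95% interval 8.92 to 10.8). Gbp3, an interferon-induced GTPase, had 260.0 and 18.7, 13.9-fold higher (95% interval 11.4 to 17). Ifi44 had 349.7 and 62.4, 5.6-fold higher (95% interval 4.95 to 6.33). The gene that was lower was Mx2, an antiviral GTPase, with 32.9 in injured CD140a(+)/Sca1(+) cells and 179 in injured CD140a(-)/Sca1(+) cells.

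Antigen processing through MHC class I is partly under the same control. Of 9 members 3 were higher, 33.3% beside 9.07% of all members. They were the immunoproteasome subunits Psmb8 (191 against 13.6) and Psmb9 (73.9 against 12.1) and the proteasome activator Psme2 (117 against 14.9). The MHC molecules themselves were within the limit, with 1361 and 1204 for H2-D1 and 2073 and 1406 for B2m, the light chain. Among the chemokines, Cxcl11 and Ccl8, both known as induced by interferon, were higher as well. Cxcl11 had 120.3 in injured CD140a(+)/Sca1(+) cells and 4.97 in injured CD140a(-)/Sca1(+) cells, 24.2-fold higher (95% interval 16.8 to 35.7), and Ccl8, a monocyte chemokine, 121 and 25.1.

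The control pair had the opposite order on this list. All 30 members were at least 3-fold lower in the library labelled control CD140a(+)/Sca1(+) than in control CD140a(-)/Sca1(+), with a median difference of -3.88, where 11.9% of all members were lower in that pair. Irf7 had 44.5 and 879 normalized counts there, and Gbp3 7.36 and 255. The median level of the 30 genes was 11.5 normalized counts in the library labelled control CD140a(+)/Sca1(+) and 289 for control CD140a(-)/Sca1(+) cells. Pdgfra in both libraries of the control pair, and Ly6a in the low one, go against the labels. The part of that in the control difference was not tested.

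The binding word of the interferon-activated complexes, GAAANNGAA, was found on either strand in 2211 of 27025 promoters (8.18%), in 352 of 4598 members (7.66%) and in 12 of 24 interferon-stimulated genes. Ifit3b and Gbp3 are shown as the named genes that hold it. The capitals mark 2 matches in each, all on the opposite strand, and those of Gbp3 overlap. The match nearest the start lies 125 bases before it in Ifit3b and 29 in Gbp3.
Ifit3b, chr19:34607777-34607876, plus strand: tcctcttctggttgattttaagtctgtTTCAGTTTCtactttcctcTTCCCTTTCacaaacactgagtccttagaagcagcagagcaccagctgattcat
Gbp3, chr3:142559944-142560043, plus strand: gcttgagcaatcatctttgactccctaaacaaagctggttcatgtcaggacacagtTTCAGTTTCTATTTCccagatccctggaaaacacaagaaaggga

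**Figure D3:**
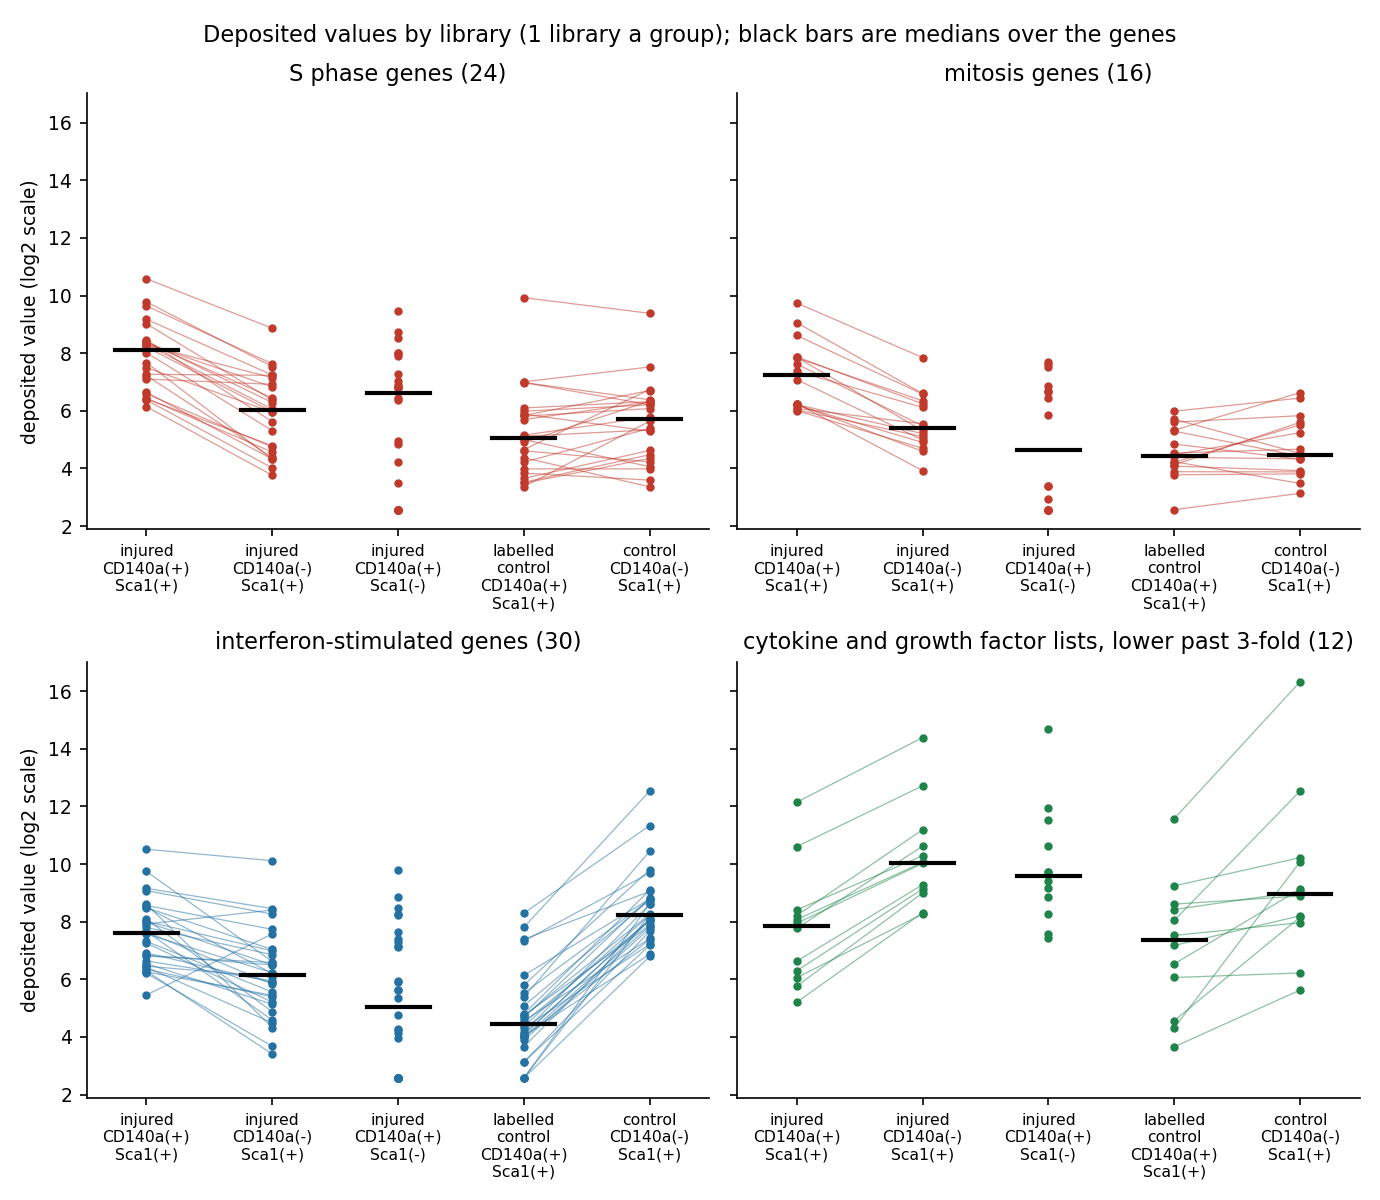
Deposited values (log2 scale) of each list gene in 5 libraries, 1 point per gene and 1 library per group, with lines joining a gene within a state and black bars at the median over genes. The S phase genes (24) and mitosis genes (16) have their highest median in injured CD140a(+)/Sca1(+). Of the interferon-stimulated genes 28 of 30 are higher in injured CD140a(+)/Sca1(+) than in injured CD140a(-)/Sca1(+), and all 30 are lower in the library labelled control CD140a(+)/Sca1(+) than in control CD140a(-)/Sca1(+). The 12 genes at lower right were chosen for being lower in the injured pair.

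Several genes for secreted inflammatory and growth factors were lower in injured CD140a(+)/Sca1(+) cells. Over 4 lists of chemokines, interleukins, growth factors and their receptors, and TGF-beta family genes, 12 of 70 members were at least 3-fold lower and 7 higher, beside 3.99% and 9.07% of all members. Among genes with a value of at least 8 the largest fall on the deposited scale was that of Tnfaip6. This gene (chr2:52038009-52056686, plus strand) encodes TSG-6, a hyaluronan-binding protein secreted under inflammation. It had 84.8 normalized counts in injured CD140a(+)/Sca1(+) cells and 1984 in injured CD140a(-)/Sca1(+) cells, 23.4-fold lower (95% interval 20.0 to 27.5). By the ratio of counts Rnd1 and Hes7 fell further, with 35.7-fold and 32.2-fold lower levels in injured CD140a(+)/Sca1(+) cells. Has1, a hyaluronan synthase outside the naming rule, had 12.2 and 218, and Has2, the other synthase among the members, 88.5 and 69.1. Of 7 hyaluronan genes 3 were lower and none higher. In the control pair, by its labels, 15 of 16 chemokines and 10 of 17 interleukin genes were also lower on the CD140a(+)/Sca1(+) side. Growth factors had 5 of 16 lower there, and these 3 lists had none higher. TGF-beta family genes had 8 of 21 lower and 1 higher, beside 11.9% lower over all members in that pair.

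Chemokines were divided. Of 30 listed genes 16 were members, and of these 3 were at least 3-fold lower (18.8%, beside 3.99% of all members) and 2 higher (12.5%, beside 9.07%). The lower genes were all CXC ligands that attract neutrophils. Cxcl5, another such ligand, had 578 in injured CD140a(+)/Sca1(+) cells and 1308 in injured CD140a(-)/Sca1(+) cells, within the limit. Cxcl1 had 4527 normalized counts in injured CD140a(+)/Sca1(+) cells and 21439 in injured CD140a(-)/Sca1(+) cells, 4.73-fold lower (95% interval 4.63 to 4.84). Cxcl2 had 285 and 2324, 8.15-fold lower (95% interval 7.48 to 8.9), and Cxcl3 had 234 and 1027, 4.39-fold lower (95% interval 3.98 to 4.84). The higher genes of the list were Cxcl11 and Ccl8, given above. The monocyte attractant Ccl2 had 3275 and 7963 and stayed within the limit. All 3 lower chemokines were also present in the third injured sort, at 26580.2 for Cxcl1, 2959 for Cxcl2 and 565 for Cxcl3.

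Cxcl1, Cxcl2 and Cxcl3 are all on chromosome 5, and each holds the NF-kB word GGGANTTTC within 250 bases of its start, where 299 of 27025 promoters (1.11%) hold it on either strand. It was found in 4 of 10 chemokine promoters and in 38 of 4598 members (0.826%). The stretches are shown because the same word, in capitals, stands 62 bases before the start of Cxcl1, 88 before Cxcl2 and 64 before Cxcl3.
Cxcl1, chr5:90891128-90891227, plus strand: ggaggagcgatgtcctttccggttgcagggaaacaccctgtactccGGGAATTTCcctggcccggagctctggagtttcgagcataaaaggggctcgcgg
Cxcl2, chr5:90903756-90903855, plus strand: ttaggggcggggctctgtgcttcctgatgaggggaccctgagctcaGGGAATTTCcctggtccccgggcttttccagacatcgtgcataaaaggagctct
Cxcl3, chr5:90785982-90786081, plus strand: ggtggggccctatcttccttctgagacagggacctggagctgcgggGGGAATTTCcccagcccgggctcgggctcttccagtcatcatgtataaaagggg

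Of the interleukin-6 family cytokines among the members, Il11, Lif and Il6 were lower, while Clcf1, at 25.4 in injured CD140a(+)/Sca1(+) cells and 68 in injured CD140a(-)/Sca1(+) cells, and Ctf2, at 108 and 134, were within the limit. Il11 had 206 normalized counts in injured CD140a(+)/Sca1(+) cells and 1563 in injured CD140a(-)/Sca1(+) cells, 7.58-fold lower (95% interval 6.85 to 8.42). Lif, leukemia inhibitory factor, had 26 and 305, 11.8-fold lower (95% interval 8.83 to 15.9). Il6 itself had 55.2 and 296, 5.37-fold lower (95% interval 4.41 to 6.6). Their shared receptor chain Il6st was within the limit, at 488 and 977. The interleukin receptor that was higher was Il4ra, the chain that binds interleukin-4 and interleukin-13, with 2612 in injured CD140a(+)/Sca1(+) cells and 641 in injured CD140a(-)/Sca1(+) cells, 4.08-fold higher (95% interval 3.91 to 4.25).

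Among growth factors, Hbegf and Ereg, 2 EGF receptor ligands grouped after their values were seen, were both lower in injured CD140a(+)/Sca1(+) cells. Hbegf had 42.9 against 499 normalized counts, 11.6-fold lower (95% interval 9.3 to 14.6), and Ereg had 87.4 against 610.1, 6.98-fold lower (95% interval 5.96 to 8.18). Vegfa, the main angiogenic factor, had 258 against 1052, 4.08-fold lower (95% interval 3.73 to 4.49). Among the receptors Pdgfrb, the beta receptor for platelet-derived growth factor, had 129 in injured CD140a(+)/Sca1(+) cells and 26.9 in injured CD140a(-)/Sca1(+) cells, 4.81-fold higher (95% interval 3.94 to 5.84). Egfr was within the limit, at 384 and 690.5.

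In the TGF-beta family 3 of 21 members were lower (14.3%) and 2 higher (9.52%), beside 3.99% and 9.07% of all members. Tgfb2, a ligand, had 67.1 normalized counts in injured CD140a(+)/Sca1(+) cells and 551 in injured CD140a(-)/Sca1(+) cells, 8.22-fold lower (95% interval 6.9 to 9.92). Inhba, the subunit of activin A, had 1545 and 6709, 4.34-fold lower (95% interval 4.18 to 4.51). The BMP antagonist Grem1 went the other way with 172 and 33.2. Of the BMP target genes, Id1 had 86.9 and 14.3 and was called higher, while Id2 had 329 and 1238 and was called lower.

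Target genes of NF-kB and early response genes had lower but no higher members, with 26.7% and 19% lower beside 3.99% of all members. Of 15 members among 20 NF-kB feedback and adhesion genes 4 were lower and none higher, with a median difference of -1.06, and of 21 members among 25 immediate early genes 4 were lower and none higher, with a median of -0.73. Vcam1, an adhesion molecule for leukocytes, had 339 normalized counts in injured CD140a(+)/Sca1(+) cells and 2180.4 in injured CD140a(-)/Sca1(+) cells, 6.43-fold lower (95% interval 5.95 to 6.97). Ptgs2, the inducible cyclooxygenase, had 394 and 2484, 6.31-fold lower (95% interval 5.86 to 6.8). Nfkbiz, a nuclear inhibitor family member, had 73.1 and 399, and Nr4a2, an early nuclear receptor, 336 and 1447. Klf4 was lower at 104 against 553, whereas Fos, at 44 and 81.3, and Egr1, at 1281 and 1692, were within the limit. In the control pair, by its labels, 11 of the 15 NF-kB and 5 of the 21 early genes were lower in CD140a(+)/Sca1(+), and none higher.

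Few matrix genes were higher, beside 9.07% of all members, while several lists had a lower share above the 3.99% of all members. Of 45 matrix glycoproteins 4 were lower (8.89%) and 2 higher (4.44%). Of 5 collagen IV and VI chains 1 was lower (20%) and none higher. Of 11 fibrillar collagen chains 7 were members, and none passed 3-fold in either direction, with a median difference of -0.54. Col1a2 had 19199 normalized counts in injured CD140a(+)/Sca1(+) cells and 23272 in injured CD140a(-)/Sca1(+) cells, Col1a1 8114 and 12744, and Col3a1 14654 and 24649.7. These chains form the collagen fibers of scar and endomysium. Of 12 proteoglycans 1 was lower (8.33%) and none higher, and of 31 matrix proteases and their inhibitors 1 was lower (3.23%). Collagen hydroxylation and cross-linking genes had 2 of 22 lower (9.09%) and none higher. The cross-linking enzyme Lox was lower, with 334 against 1141, 3.42-fold lower (95% interval 3.15 to 3.72), and Loxl2 had 468 against 1451. Tgfbi, a TGF-beta-induced matrix protein, had 261 in injured CD140a(+)/Sca1(+) cells and 1082 in injured CD140a(-)/Sca1(+) cells.

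FAP markers other than the sort gene were spread on both sides of 0. Of 24 members on the fibroblast and FAP list 2 were higher, Pdgfra and Pdgfrb, and 2 were lower, Vcam1 and Cd34 (63.8 against 256), with a median of -0.29. Both shares are 8.33%, beside 9.07% higher and 3.99% lower over all members. Decorin, Dcn, had 3611 and 6949 normalized counts, and Prrx1, a mesenchymal transcription factor, 927 and 721, CD140a(+)/Sca1(+) first. The other 20 members of the list were within the limit. Of 13 genes of progenitor fibroblasts 3 were lower: Has1, Ackr3, the scavenging receptor for Cxcl12 (58.3 against 462), and Ugdh (188 against 624). Of 15 myofibroblast genes 3 were lower (20%) and 1 was higher (6.67%), with a median of -0.06. The lower genes were Lrrc15 (20.7 against 135), Aspn (41.9 against 235) and Inhba, given above. The higher gene was Acta2, the smooth muscle actin, with 867 against 224, 3.87-fold higher (95% interval 3.6 to 4.15). Acta2 was also the 1 higher gene of 6 pericyte and smooth muscle members (16.7%, beside 9.07% of all members), with none lower. All genes of that list made up 0.0625% of the injured CD140a(+)/Sca1(+) library and 0.0347% of injured CD140a(-)/Sca1(+).

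Igfbp7, a secreted binding protein of insulin-like growth factors, had 2129.6 normalized counts in injured CD140a(+)/Sca1(+) cells and 391 in injured CD140a(-)/Sca1(+) cells, 5.45-fold higher (95% interval 5.19 to 5.72). Igf2r, the clearance receptor for IGF-II, had 467 and 123. Heat shock chaperones were higher for 6 of 14 members (42.9%, beside 9.07% of all members) and lower for none, with a median of 1.23. Hspe1, the mitochondrial chaperonin cofactor, had 2269 and 311, and Hspa8, the constitutive HSP70, 3254 and 775. The library labelled control CD140a(+)/Sca1(+) also had 8 of these 14 genes higher than control CD140a(-)/Sca1(+) and a median difference of 2.00. Hspe1 overlaps Hspd1, Igfbp7 overlaps Polr2b and Igf2r overlaps Airn on the opposite strand. Cholesterol synthesis genes had 2 of 12 higher (16.7%) and a median of 1.47.

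Genes of energy metabolism and protein turnover differed modestly, beside 9.07% higher and a median difference of 0.19 over all members. Of 65 nuclear subunits of the respiratory chain 10 were higher (15.4%) and none lower, with a median of 0.97, and 61 lay above 0. Of 30 proteasome subunits 5 were higher (16.7%), and all 30 lay above 0 with a median of 0.82. Of 79 cytosolic ribosomal proteins 3 were higher (3.8%), below the share of all members. Their median was 0.36, and -0.05 once the trend over transcript length, described next, was removed. Over all listed genes, 72 of 77 respiratory chain and 32 of 33 proteasome genes lay above 0. These 3 lists are made of short transcripts, with median lengths of 1141, 1705 and 1059 bases, against 3794 bases over the members.

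Length moved with the difference over the whole set. In 5 bins of nearly equal size by transcript length, the bin of the shortest transcripts had a median difference of 0.62 and 16.5% called higher, and the bin of the longest had a median of -0.16 and 4.30% called higher. Spearman's rho between the difference and length was -0.24 over 5807 genes, which are not independent replicates. In the control pair, by its labels, rho over the same genes was 0.11. The median control difference was -0.49 in the bin of the shortest and -0.13 in the bin of the longest transcripts. Large falls in the injured pair were found for long and for short transcripts. Ahnak (173 against 2119) and Lrp1 (57.3 against 791) have transcripts of 18100 and 14888 bases. Tnfaip6, Hes7 and Rnd1, the largest falls on the deposited scale with a value of at least 8, have 1710, 1809 and 2203 bases. The S phase genes had a median of 2.25 for those longer than the median member and 2.01 for the shorter ones. With the trend over length removed, 18 of 24 S phase genes were higher in injured CD140a(+)/Sca1(+) cells. After the same removal 3 of 65 respiratory chain genes were higher with a median of 0.51, against 10 and 0.97 as deposited, and 1 of 30 proteasome genes with a median of 0.41, against 5 and 0.82. Ly6a had a difference of 1.29 after it, under the 3-fold limit, against 1.79 as deposited.

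**Figure D4:**
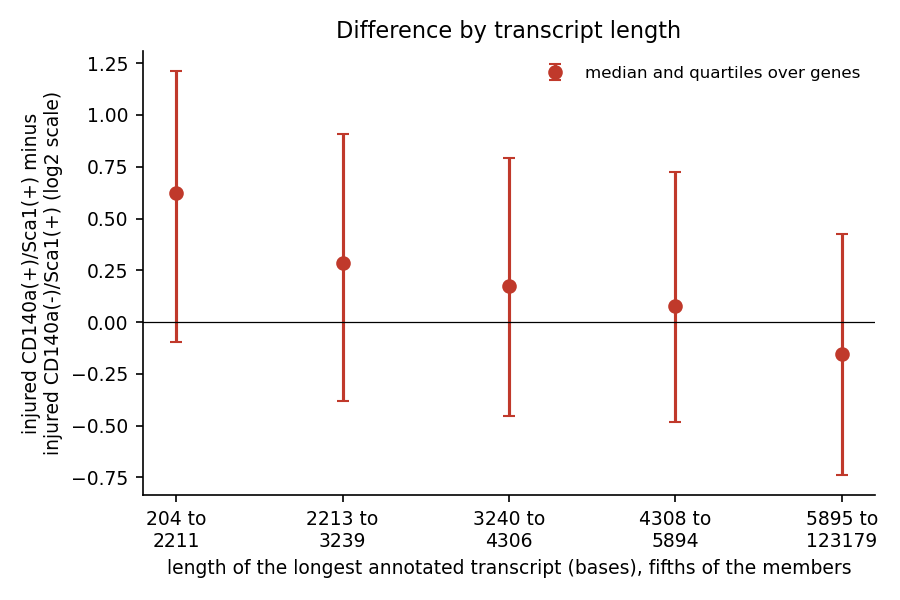
Median difference between injured CD140a(+)/Sca1(+) and injured CD140a(-)/Sca1(+) (log2 scale, bars from lower to upper quartile over genes) in 5 bins of the members by transcript length in bases. The median goes down over the bins, with 0.62 in the shortest and -0.16 in the longest.

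Of the 527 genes higher in the injured pair, 65 were also at least 3-fold higher in the library labelled control CD140a(+)/Sca1(+), 60 were lower there, and 402 were within the limit. Of the 232 lower genes 58 were lower, 9 higher and 165 within. The 65 genes are 12.3% of the injured and 26.2% of the control list of higher genes, and the 58 are 25% and 8.38% of the lists of lower genes. In the control pair 4.27% of the members were higher and 11.9% lower, with a median of -0.37. The 60 genes higher in the injured and lower in the control pair are 11.4% of the injured higher genes, near that 11.9% of all members. Of the 60 genes 11 were interferon-stimulated. That count is set by the 11 called higher, since all 30 on that list were lower in the control pair. The 2 comparisons share no library.

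**Figure D5:**
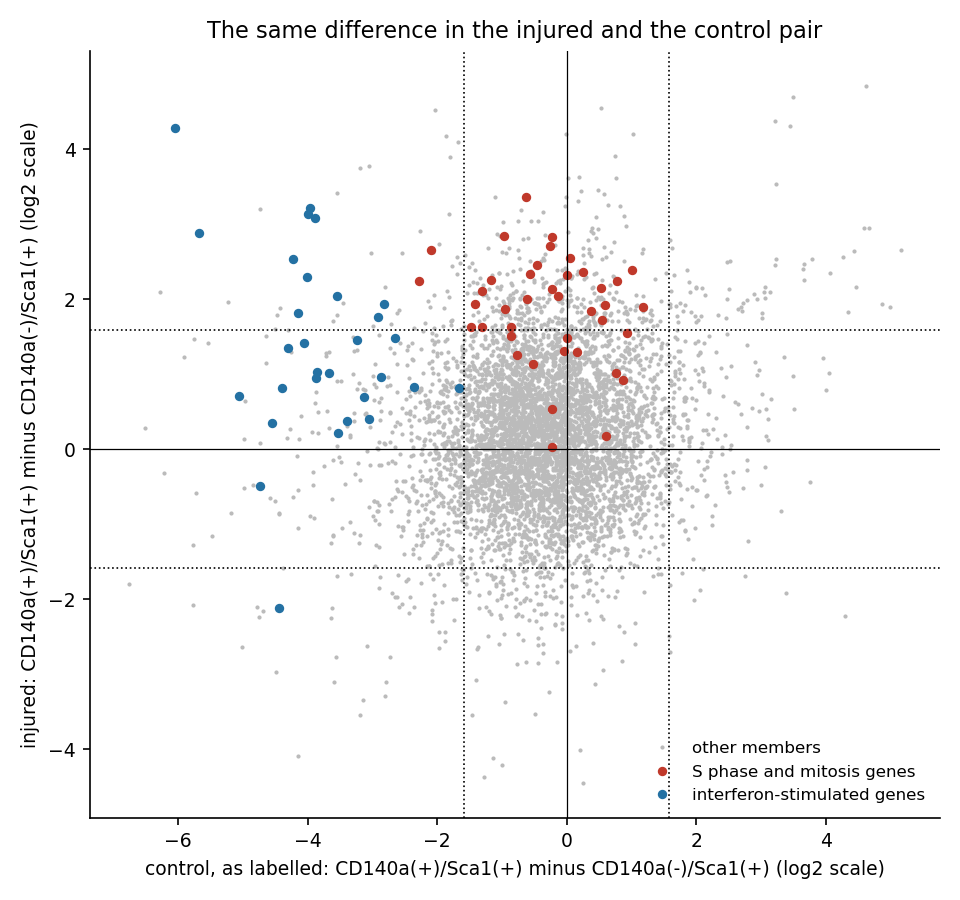
Difference between CD140a(+)/Sca1(+) and CD140a(-)/Sca1(+) (log2 scale) in the injured pair (y axis) against the control pair as labelled (x axis), 1 point per member gene, with dotted lines at 3-fold. Interferon-stimulated genes (blue) lie to the left of the 3-fold line of the control pair, and 28 of 30 lie above 0 in the injured pair, while S phase and mitosis genes (red) are spread around 0 on the control axis.

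Some of the largest differences belong to RNA that stromal cells are not known for. The hemoglobin genes Hba-a2 (246 against 1.02) and Hbb-bs (336 against 4.24) were both higher in the injured CD140a(+)/Sca1(+) library, and all 7 red cell genes together had 666 normalized counts there and 5.41 in injured CD140a(-)/Sca1(+). Endothelial genes made up 0.0816% and 0.0507% of the 2 libraries, with reads for 24 and 21 of 32 genes and with Vwf, Cldn5 and Plvap among those at 0 in both. Of the 8 endothelial genes among the members 2 were higher (25%, beside 9.07% of all members) and none lower, with a median of 0.78. Fabp4, a fatty acid binding protein also of adipocytes, had 298 against 47.2, and Kdr, a VEGF receptor, 89 against 22.4. Leukocyte genes made up 0.0880% and 0.104%, with reads for 33 and 28 of 36 genes and with Csf1r at 110.2 and 118. Neither sum separates the sorts by more than 2-fold, and the part of endothelial and red cell RNA in the other results was not tested. Acat2 had 467 and 83.5 and its near-identical copy Acat3 66.8 and 1248, so the division of reads between them is uncertain. Large rises outside these themes, CD140a(+)/Sca1(+) first, were Mrpl18 (561 and 14.0), Cbx3 (1710 and 71.7) and Tial1 (2141 and 97.5). Eif3g had 1191 and 53.9, Ormdl1 252 and 4.97, Cbx6 381 and 21.3 and Olfm1 893 and 74.2. All are among the 15 largest rises with a value of at least 8. Mrpl18 overlaps Tcp1 on the opposite strand. In the control pair, by its labels, Cbx3 and Tial1 were also called higher and the others were within the limit.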

How the data were processed

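The processed table covers 6 libraries, 1 for each of 3 sorts in 2 states, and only the 2 injured Sca1(+) libraries enter the main comparison. QuantSeq 3′ reads were trimmed by the authors (FastX-Toolkit) and aligned by STAR and BRB-seqtools v.1.2 to the mouse genome GRCm38. The authors normalized read counts with DESeq2, and the deposited log2 values were treated here as its variance stabilizing transformation. Such reads count transcript ends, so levels are not divided by length.

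The lowest deposited value, 2.57, stands for 0 reads and fixes the transformation, which was inverted to normalized counts and tested on simulated data. The steps between low values give the size of 1 read, with 59.1% to 68.6% of low values within 0.02 reads of a whole number. Estimated depth ran from 2095648 to 14161985 reads per library, so reads in the intervals are estimates, and 3 reads equal 1.59 normalized counts in injured CD140a(+)/Sca1(+) cells and 0.439 in injured CD140a(-)/Sca1(+) cells. QuantSeq reads without molecular identifiers are not independent molecules. Intervals are exact (Clopper-Pearson, 95%).

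Members, the 49 gene lists and the naming rule were chosen with earlier results of these data known. Named genes are the sort and gate genes, the 15 largest differences in each direction and up to 4 genes of each list with a value of at least 8, the 10 members with the highest mean, and the 8 largest changes in each direction between the injured and control differences. Not all genes under this rule are given in the text, and other genes were named after their values were seen. Symbols were matched for 22453 of 22483 identifiers (GENCODE M21). Promoters came from RefSeq (GRCm38.p6), with a window for 4598 members. Alternatives changed the scale (pseudocounts of 1 and 0.5), the scaling, the filter and the fold limit. Removal of a running median over 501 members by transcript length, and the alternatives for the control pair, were added after seeing the data. The versions were scipy 1.17.1, pandas 2.3.3 and numpy 2.4.6, under Python 3.11.15.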

Additional observations from a re-analysis of the deposited data

Results flagged for a closer look

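For 15 of the named genes the difference between CD140a(+)/Sca1(+) and CD140a(-)/Sca1(+) was past 3-fold in opposite directions in the injured pair and the control pair. The naming rule takes in genes with the largest change between the pairs, so this count follows in part from the choice. Over all 5808 members 60 were higher in the injured and lower in the control pair, and 9 the reverse. Each value here is the injured difference minus the control difference on the log2 scale. With 1 library a group the difference between the states was not tested, and the control pair goes against its labels in Pdgfra and Ly6a. The injured differences of Ly6a (1.29), Map1b (-1.23) and G530012D18Rik (1.57) were under the 3-fold limit once the trend over transcript length was removed.

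Interferon-stimulated genes and genes reported beside them were higher in the injured pair and lower in the control pair. The value was 10.33 for Ifit3b, 7.17 for Gbp3, 7.13 for Irf7, 6.30 for Ifi44, 6.97 for Phf11d and 8.38 for G530012D18Rik. The sort genes had 4.43 for Pdgfra and 6.26 for Ly6a. Among genes of division, Mcm6 had 4.74 and Ccnd1 had 5.69, with 6.55 for LTO1, which overlaps Ccnd1.

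In the other direction, 4 genes were lower in the injured pair and higher in the control pair. The value was -4.44 for Map1b, a microtubule-associated protein of neurons and glia, -3.40 for Hbp1, -5.30 for Ypel5 and -4.29 for Atf7ip.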

How the results depend on the processing

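No paired analysis was possible because the injured comparison sets 1 library against 1 and the labels give no replicate numbers, and no library could be left out in turn. A fit of sort and state over all 6 libraries, which would average the injured with the control difference, was not run. The 527 higher and 232 lower genes became 340 and 363 after quantile normalization. A limit of 2-fold gave 1214 higher and 632 lower, and a limit of 4-fold 252 and 113. A filter at a value of 7 gave 344 higher, a filter at 8 gave 185 higher and 111 lower, and no filter gave 862 higher, where the number of genes tested sets the count. The median difference in the injured pair, 0.19, was 0.0212 after median centring, 0.0689 after scaling to the 75th percentile, 0.0213 after quantile normalization and 0.0 with no filter, where genes at 0 in both libraries enter. With the filter at 8, the higher genes fell to 11 for S phase, 3 for mitosis and 4 for the interferon-stimulated list, with fewer genes tested. Between the pairs, the 123 calls in the same direction were 69 with the filter at 8, and the 69 opposite calls were 127 on the scale of log2 of the normalized count plus 1, 42 with the filter at 7 and 25 at 8, all 4 added after seeing the data. Of 100 named genes past 3-fold, 85 stayed past it under all 7 alternatives of scale, scaling and length, and none changed sign. Removal of the length trend gave 478 higher and 230 lower genes. Depth was 4066562 reads in injured CD140a(+)/Sca1(+), so its low values carry the wider counting error, and with 1 library a side the spread between animals is unknown.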

Other observations

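A group of 12 predicted genes was picked after the values were seen, and 11 of them were at least 3-fold higher in injured CD140a(+)/Sca1(+) cells. Gm21738, with 344 and 140.5, was within the limit. Gm10800 had 4530 normalized counts in injured CD140a(+)/Sca1(+), 883 in injured CD140a(-)/Sca1(+) and 3784 in injured CD140a(+)/Sca1(-) cells, and 41176 in the library labelled control CD140a(+)/Sca1(+) against 2461 in control CD140a(-)/Sca1(+). Gm10717 had 827 and 97.0 in the injured pair and 9298 and 374 in the control pair, CD140a(+)/Sca1(+) first. All 12 had higher levels in the CD140a(+)/Sca1(+) library of both states. Whether reads were divided among similar copies was not tested.

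Glycolysis and hypoxia genes moved in both directions, with 3 of 22 members lower in injured CD140a(+)/Sca1(+) cells (13.6%) and 1 higher (4.55%). Over all members 3.99% were lower and 9.07% higher. Hk2, the inducible hexokinase, had 589.8 and 2113 normalized counts, and Pgam1, phosphoglycerate mutase, had 607 and 116, CD140a(+)/Sca1(+) first. Of 22 genes of protein folding and secretion 2 were lower, Pdia3 with 264 and 1139 and Dnajb9 with 199.7 and 739.8, and none was higher.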
